A study of Mus musculus with 12 samples.

Results

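Serine, asparagine, proline and folate-bound one-carbon units are made in the cell by a small set of enzymes, and 10 of their genes were followed here: Phgdh, Psat1, Psph, Shmt1, Shmt2, Mthfd2, Mthfd1l, Aldh1l2, Pycr1 and Asns. They were taken by gene symbol from RNA-seq libraries of primary oligodendrocyte progenitors isolated from the brain of wild-type mice. These glial cells differentiate into the oligodendrocytes that form myelin. They are 10 of the 18876 genes listed in any of the 12 libraries. All 10 had counts in every library, and all 10 were among the 13967 genes that passed the filter on low counts. Each treatment lasted 12 h and had 3 libraries. The vehicle group received DMSO, the hemin group 50 µM hemin, the IL-10 group 50 µM hemin with 10 ng/mL interleukin-10, and the stattic group 50 µM hemin with 10 ng/mL interleukin-10 and 2.5 µM stattic. Hemin is oxidised heme. Interleukin-10 is an anti-inflammatory cytokine whose receptor activates STAT3, and stattic is a small-molecule STAT3 inhibitor. In these 12 libraries neither interleukin-10 nor stattic was given without hemin. Nothing in the labels ties a replicate to its own culture or animal, and the p-values therefore reflect only how these libraries vary, which may be technical variation.

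Phgdh, Psat1 and Psph act in turn to convert an intermediate of glycolysis into serine. Shmt1 in the cytosol and Shmt2 in mitochondria split serine into glycine and a one-carbon unit carried on tetrahydrofolate, and in mitochondria Mthfd2, Mthfd1l and Aldh1l2 process that unit further. Pycr1 carries out the last step of proline synthesis and Asns makes asparagine. Several of these genes are textbook targets of ATF4, a transcription factor whose protein is made when the initiation factor eIF2 is phosphorylated, for example by the heme-regulated kinase encoded by Eif2ak1. In brain, serine synthesis is best known from astrocytes and radial glia.

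The C/EBP-ATF response element is the composite site that ATF4 and its C/EBP partners bind, and the Asns promoter is its classic example. Promoter windows of 300 bases, 250 before and 50 after a start site, were supplied from RefSeq (GRCm38.p6) for 9 of the 10 genes, in 10 windows. The letters TGATGNAA were searched on both strands (TTNCATCA on the other). A match was present in 2 of the 9 genes, Pycr1 and Asns, beside 4.51% of all 27025 gene symbols with a window of that length. By window, 3.97% of all 32851 held a match. The 250 bases before the start site of both are shown because they hold the matches, in capitals, 5′ to 3′ on the strand of the gene. The Pycr1 stretch lies at chr11:120643749-120643998 and the Asns stretch at chr6:7693210-7693459, both on the minus strand, and the matches begin at positions -103 and -23 from the start.
Pycr1: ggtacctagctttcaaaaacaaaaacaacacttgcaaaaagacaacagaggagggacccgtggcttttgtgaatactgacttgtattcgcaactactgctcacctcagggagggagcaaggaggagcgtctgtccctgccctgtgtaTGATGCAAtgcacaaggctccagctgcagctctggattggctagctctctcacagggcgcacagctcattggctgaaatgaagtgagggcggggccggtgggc
Asns: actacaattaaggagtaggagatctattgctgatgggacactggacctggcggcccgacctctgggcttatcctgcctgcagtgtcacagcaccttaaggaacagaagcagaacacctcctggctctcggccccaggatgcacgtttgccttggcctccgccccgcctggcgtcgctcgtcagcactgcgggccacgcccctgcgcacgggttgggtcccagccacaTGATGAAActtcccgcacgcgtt
A match is a description of the letters and not of binding. The bases at the N position differed, C in Pycr1 and A in Asns. The other 7 genes with a window held no match in it.

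Each library held 9404448 to 10266653 expected counts in 15051 to 16899 listed genes. Any pair of replicates differed by more than sampling noise (chi-square over degrees of freedom 14.6 to 176.2). Levels are given as CPM (counts scaled to a common library size by trimmed means, for 1 gene across libraries) or as deposited FPKM (scaled for transcript length, for comparisons between genes), and changes as log2 fold changes on the count scale, with a standard error (SE) or a 95% confidence interval (CI). All 9 treated libraries had a length trend of 1 direction, steepest in hemin replicate 1 and stattic replicate 3: relative to vehicle, the median log2 difference of the shortest and longest of 5 length groups of genes was 0.47 and -0.46 in the former and 1.13 and -0.86 in the latter. In the other treated libraries it was 0.04 to 0.29 and -0.21 to -0.09. Across all genes 1639 were higher and 1278 lower in hemin than in vehicle, against 1395 and 1593 when scaled by library totals and 955 and 1650 by limma on log2(FPKM + 1). The corresponding counts were 1696 and 1231 against 1317 and 1665 and against 895 and 1724 for the IL-10 group, and 2048 and 1424 against 1414 and 2208 and against 946 and 2358 for the stattic group. The median of all genes moved from 0.03 to -0.07, from 0.0 to -0.13 and from 0.1 to -0.14 with library totals in these 3 comparisons with vehicle. Summed progenitor markers (10 genes, Pdgfra, Olig2 and Sox10 among them) were at 4900 to 7060 CPM in vehicle, 2060 to 3100 in hemin, 1520 to 2960 in the IL-10 group and 1030 to 2280 in the stattic group.

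In vehicle, the 2 most abundant of the 10 transcripts per length were Phgdh at 170 ± 27.8 FPKM and Psat1 at 154 ± 8.86 (mean ± SD, n = 3), whose libraries overlapped. Shmt2 followed at 53.3 ± 4.73 and lay apart from its neighbours in the order. Asns at 35.4 ± 6.44 overlapped with Psph at 27.9 ± 2.84, and Mthfd2 at 20.9 ± 3.31 overlapped with Aldh1l2 at 17.2 ± 5.36, which overlapped with Shmt1 at 14.3 ± 5.0. Mthfd1l at 7.31 ± 1.53 and Pycr1 at 4.35 ± 1.21 were the lowest and overlapped each other. The order thus put the first enzymes of serine synthesis on top and the formate-releasing and proline enzymes at the bottom.

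With treatment, the place of Asns in this order moved from the fourth in vehicle to the third in hemin, at 133 ± 59.8 FPKM, and to the second in the IL-10 group, at 218 ± 98.5, where its libraries overlapped with those of Phgdh and Psat1. It was the third again in the stattic group, at 156 ± 67.0. Mthfd2 lay beside Aldh1l2 in vehicle but at 62.9 ± 19.2 FPKM in hemin against 9.45 ± 2.16 for Aldh1l2. Pycr1 had the lowest mean of the 10 in each of the 4 groups, with 5.85 ± 1.75 FPKM in hemin, 7.46 ± 1.5 in the IL-10 group and 7.81 ± 1.89 in the stattic group.

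**Figure D1:**
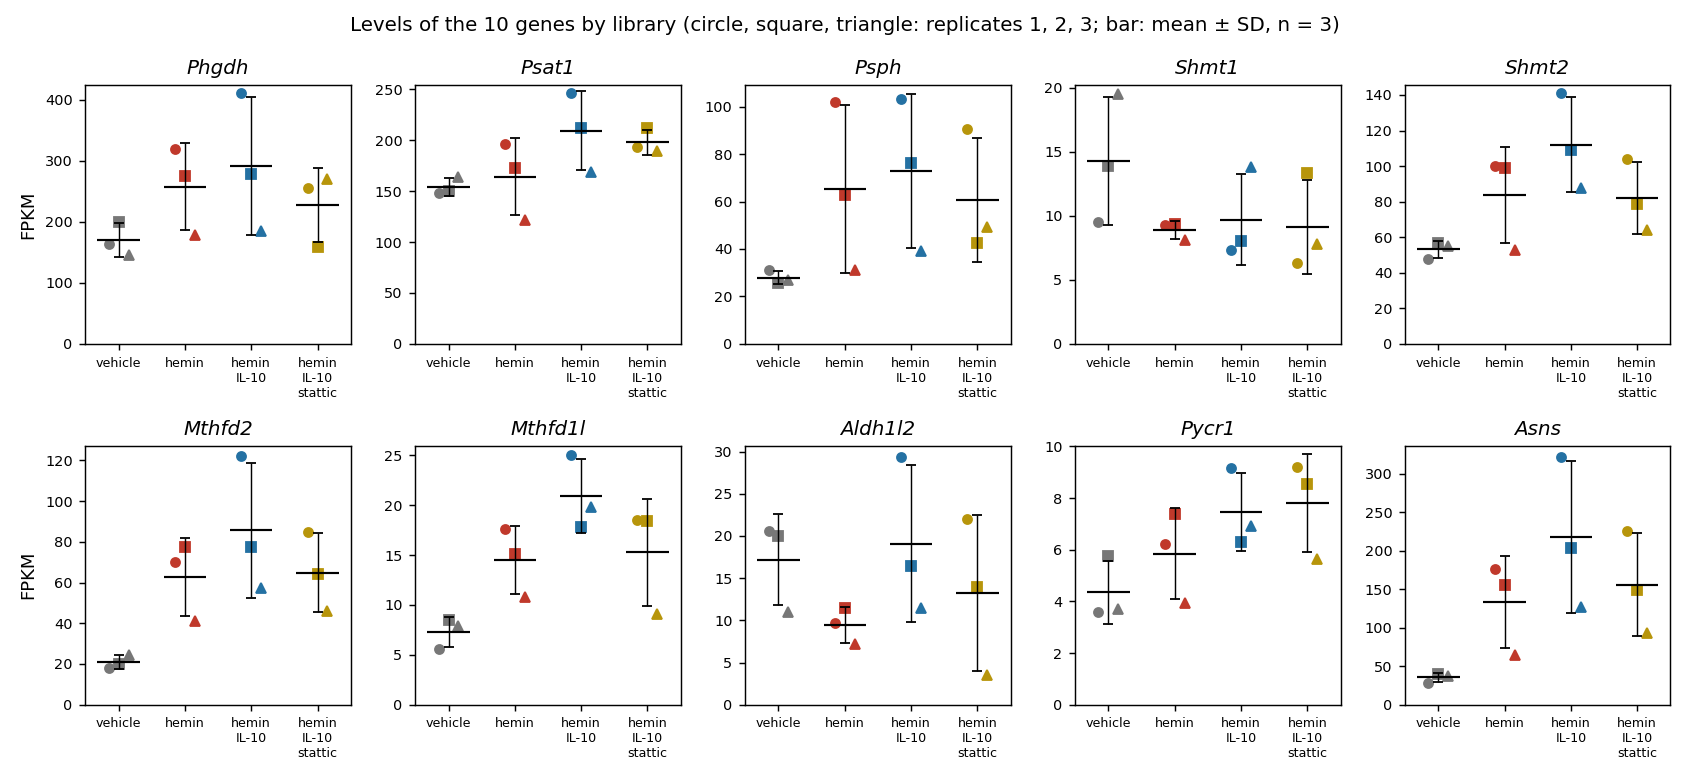
FPKM of each of the 10 genes (y axis, linear, a separate scale for each gene) in the 4 groups (x axis), with 1 symbol per library and the mean ± SD (n = 3) as lines. Asns, Mthfd2, Mthfd1l and, by a small margin, Psph (up to 31.1 in vehicle, from 31.2 in hemin) have all vehicle libraries below all hemin libraries, Shmt1 has them all above (from 9.53 in vehicle, up to 9.35 in hemin), and the triangle of hemin replicate 3 is the lowest hemin symbol in each panel.

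The first comparison asks what hemin did to these transcripts. Asns, Mthfd2 and Mthfd1l rose with hemin, by 4.11-fold, 3.3-fold and 2.06-fold, and none of the 10 fell. That is 3 of 10 called higher (edgeR quasi-likelihood test, Benjamini-Hochberg adjusted p under 0.05 over all genes tested), where 11.7% of all genes were called higher. No member was called lower, against 9.15% of all genes. At an unadjusted p under 0.05 none was lower either (16.2% of all genes), and DESeq2 called 5 higher and none lower and limma 3 higher and none lower. The 3 genes called were also the 3 whose hemin libraries all lay above all vehicle libraries in CPM, a pattern seen in 25.6% of all genes. The log2 change was above 0 for 8 of the 10, against 51.6% of all genes, and the median of the 10 was 0.75 against 0.03 over all genes.

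Asns, which makes asparagine from aspartate and glutamine, stood at 47.6, 68.5 and 63.9 CPM in the vehicle libraries and at 333, 294 and 113 CPM in the hemin libraries. The groups did not overlap, and hemin replicate 3 was far below the other two hemin libraries. The log2 change was 2.04 (SE 0.45, 95% CI 1.06 to 3.02, adjusted p = 0.00998 by edgeR). In the IL-10 group Asns reached 624, 377 and 230 CPM and in the stattic group 432, 273 and 213 CPM, again above every vehicle library. Against vehicle these are log2 changes of 2.77 (CI 1.76 to 3.78, adjusted p = 0.00264) and 2.35 (CI 1.36 to 3.34, adjusted p = 0.00493), the largest of any of the 10 genes in each treatment. Without vehicle replicate 1, the hemin change was 1.9 with adjusted p = 0.0508.

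Mthfd2, the mitochondrial dehydrogenase and cyclohydrolase of the folate pathway, was at 32.2, 36.5 and 43.9 CPM in vehicle and at 140, 155 and 76.6 CPM in hemin. All hemin libraries lay above all vehicle libraries. The log2 change was 1.72 (SE 0.34, CI 0.98 to 2.46, edgeR adjusted p = 0.00601). With interleukin-10 added it was at 251, 152 and 110 CPM, a log2 change from vehicle of 2.19 (adjusted p = 0.00216), and with stattic at 171, 125 and 112 CPM, a change of 1.86 (adjusted p = 0.00394). In each of the 3 treatments Mthfd2 was called higher than vehicle in all 24 alternative settings tried.

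Mthfd1l, the mitochondrial enzyme that releases the one-carbon unit as formate, had 19.1, 29.0 and 26.7 CPM in vehicle and 62.0, 54.9 and 37.1 CPM in hemin. The groups did not overlap. Its log2 change was 1.04 (SE 0.29, CI 0.41 to 1.67, edgeR adjusted p = 0.0252), and the call was lost without any 1 of vehicle replicates 1, 2 and 3 or hemin replicates 1 and 2 (adjusted p 0.112, 0.0535, 0.0711, 0.0887 and 0.0891), with log2 changes of 0.88 to 1.17. The IL-10 libraries stood at 96.4, 63.6 and 68.9 CPM, so that all 3 also exceeded all hemin libraries, and the log2 change from vehicle was 1.61 (adjusted p = 0.00398). The stattic libraries were at 69.7, 66.5 and 39.9 CPM and the change from vehicle was 1.24 (adjusted p = 0.0117; 0.0594 without vehicle replicate 1).

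Aldh1l2, the mitochondrial enzyme that oxidises formyl-tetrahydrofolate to carbon dioxide with formation of NADPH, was not called in any comparison. It was at 118, 107 and 62.3 CPM in vehicle and at 60.4, 73.5 and 44.8 CPM in hemin, with overlapping groups. Its log2 change was -0.69 (CI -1.77 to 0.4, edgeR adjusted p = 0.352). In the IL-10 group its libraries spread from 72.4 to 188 CPM and in the stattic group from 28.2 to 139 CPM, and the log2 differences from vehicle were 0.34 (CI -0.73 to 1.42) and -0.16 (CI -1.24 to 0.91). Its transcript, at 6276 bases, was the longest of the 10, which ranged from 1490 bases upward. The library at 28.2 CPM was stattic replicate 3, which had the steepest length trend; without it and hemin replicate 1 the difference between the stattic and vehicle groups was 0.25 (adjusted p = 0.691).

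The serine hydroxymethyltransferases had log2 differences of opposite sign with hemin; the difference between them was not tested. Mitochondrial Shmt2 was at 96.7, 115 and 110 CPM in vehicle and at 223, 220 and 108 CPM in hemin. Hemin replicates 1 and 2 lay above every vehicle library and replicate 3 lay within the vehicle range, and the log2 difference of 0.77 (CI 0.13 to 1.41) missed the threshold (edgeR adjusted p = 0.0806; 0.0227 with a log2 change of 1.04 without hemin replicate 3). In the IL-10 group Shmt2 rose, with 322, 237 and 188 CPM and a log2 change from vehicle of 1.22 (SE 0.3, CI 0.57 to 1.86, adjusted p = 0.0151). This call was lost without vehicle replicate 1 (adjusted p = 0.0688), vehicle replicate 3 (0.0525) or IL-10 replicate 1 (0.0604). The stattic libraries, at 235, 170 and 174 CPM, all exceeded vehicle, with a log2 difference of 0.85 (CI 0.21 to 1.48, adjusted p = 0.0535).

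Cytosolic Shmt1 was at 18.9, 27.4 and 38.0 CPM in vehicle and at 20.4, 22 and 17.5 CPM in hemin, 14.8 to 30.1 CPM in the other 2 groups. Its log2 differences from vehicle were -0.49 (CI -1.21 to 0.23), -0.35 (CI -1.07 to 0.38) and -0.36 (CI -1.08 to 0.37) for hemin, the IL-10 group and the stattic group, with edgeR adjusted p-values of 0.316, 0.491 and 0.454. The groups overlapped in CPM in each comparison, while in FPKM the hemin libraries (8.08 to 9.35) lay below the vehicle libraries (9.53 to 19.5). The intervals include no change as well as a fall of more than 1.07 on the log2 scale.

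Of the 3 enzymes of serine synthesis itself none was called with hemin alone, and Psph was called in the IL-10 group. For Phgdh, the dehydrogenase at the entry to the pathway, vehicle libraries were at 264, 324 and 234 CPM and hemin libraries at 572, 492 and 299 CPM. Hemin replicate 3 fell inside the vehicle range, and the log2 difference was 0.73 (CI -0.07 to 1.53, edgeR adjusted p = 0.176). In the IL-10 group Phgdh was at 756, 489 and 320 CPM and in the stattic group at 463, 277 and 590 CPM, with log2 differences from vehicle of 0.93 (CI 0.13 to 1.73, adjusted p = 0.0916) and 0.69 (CI -0.1 to 1.49, adjusted p = 0.183).

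Psat1, the aminotransferase of the middle step, was at 290, 297 and 321 CPM in vehicle and at 425, 380 and 248 CPM in hemin, so that hemin replicate 3 lay below all vehicle libraries. Its log2 difference of 0.22 (CI -0.32 to 0.75, edgeR adjusted p = 0.563) was the smallest of the 8 positive values. Both groups with interleukin-10 lay wholly above vehicle, at 562, 457 and 355 CPM and, with stattic, at 433, 450 and 491 CPM. The log2 difference from vehicle was 0.6 (CI 0.07 to 1.13) in both, with adjusted p-values of 0.101 and 0.092.

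Psph, the phosphatase that releases serine, was at 41.0, 34.5 and 36.1 CPM in vehicle. In hemin it spread from 40.3 CPM in replicate 3, just inside the vehicle range, through 84.4 to 135 CPM, and the log2 difference was 1.22 (SE 0.44, CI 0.26 to 2.17, edgeR adjusted p = 0.0673; 0.0257 with a log2 change of 1.55 without hemin replicate 3). In the IL-10 group, at 139, 99.8 and 52.6 CPM, it rose by 1.39 on the log2 scale (CI 0.43 to 2.34, adjusted p = 0.0429). That call was lost without any 1 vehicle library (adjusted p 0.104 to 0.116), IL-10 replicate 1 (0.158) or 2 (0.104), or hemin replicate 2 (0.0602). In the stattic group Psph was at 121, 57.4 and 88.1 CPM, above each vehicle library, and the log2 difference was 1.26 (adjusted p = 0.0544).

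Pycr1, the mitochondrial pyrroline-5-carboxylate reductase, was the least abundant of the 10, with 69 to 188 expected counts per library. It was at 6.49, 10.7 and 6.57 CPM in vehicle and at 12.8, 15.3 and 8.01 CPM in hemin, a log2 difference of 0.6 (CI -0.08 to 1.29, edgeR adjusted p = 0.192). The IL-10 libraries, at 18.0, 12.5 and 13.4 CPM, and the stattic libraries, at 19.7, 17.0 and 14.9 CPM, all lay above all vehicle libraries. The log2 differences were 0.89 (CI 0.2 to 1.57, adjusted p = 0.0639) and 1.12 (SE 0.32, CI 0.43 to 1.8, adjusted p = 0.0243), so that Pycr1 rose in the stattic group. The difference between the stattic and IL-10 groups was 0.23 (CI -0.45 to 0.9, adjusted p = 0.926). The call was lost without vehicle replicate 1 (adjusted p = 0.1), vehicle replicate 3 (0.0937) or stattic replicate 1 (0.0547).

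Counted over the 10 genes, 5 rose in the IL-10 group against vehicle (Asns, Mthfd2, Mthfd1l, Psph and Shmt2; 12.1% of all genes were called higher) and 4 in the stattic group (Asns, Mthfd2, Mthfd1l and Pycr1; 14.7% of all genes). None fell in either, where 8.81% and 10.2% of all genes were called lower; DESeq2 called 8 and 7 higher and none lower, limma 4 and 3 higher and none lower, and none was lower at an unadjusted p under 0.05 (16.1% and 16.2% of all genes). In both groups 7 of the 10 genes lay wholly above vehicle, a pattern of 24.9% and 21.5% of all genes. The median log2 difference of the 10 was 1.07 and 0.98, against 0.0 and 0.1 over all genes. The 3 comparisons share the vehicle libraries and are not independent. Without vehicle replicate 1 the counts of members that rose were 1 with hemin, 3 in the IL-10 group and 2 in the stattic group. Without vehicle replicate 3 or without IL-10 replicate 1 the count for the IL-10 group was 3.

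**Figure D2:**
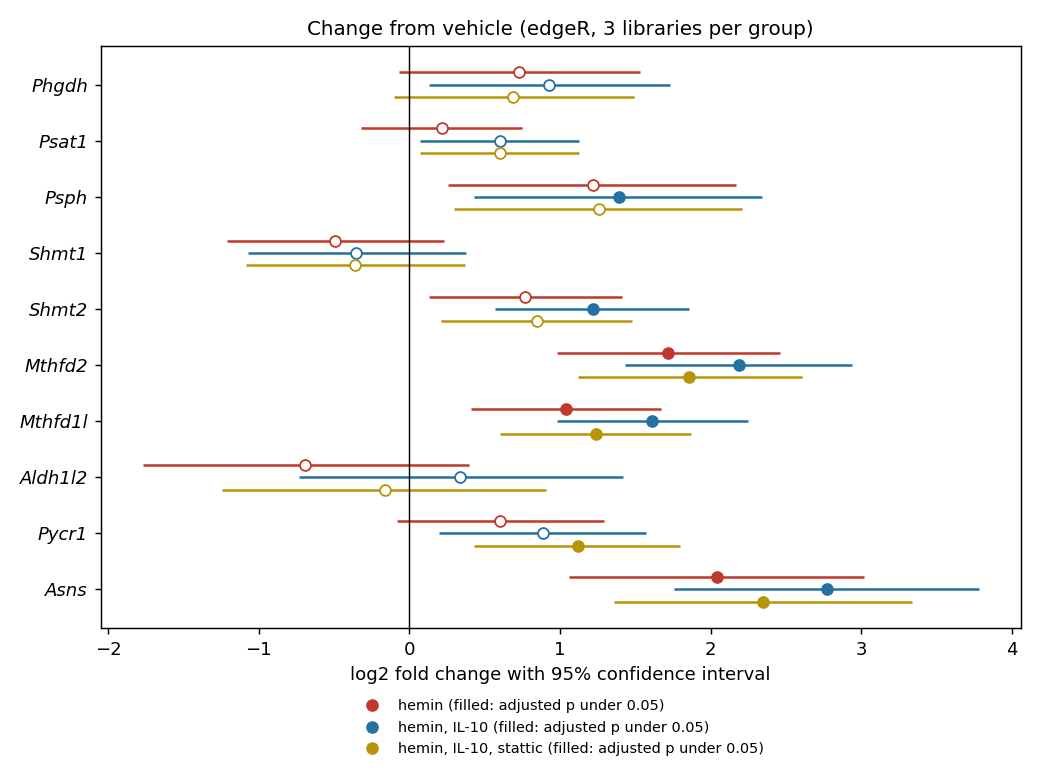
Log2 fold change from vehicle (x axis) of each gene (y axis) with its 95% confidence interval for hemin, hemin with interleukin-10, and both with stattic (edgeR, 3 libraries per group; filled symbols have an adjusted p under 0.05). The intervals of Asns, Mthfd2, Mthfd1l, Psph and Shmt2 lie above 0 in all 3 treatments, though Psph and Shmt2 have a filled symbol only for hemin with interleukin-10. Those of Shmt1 and Aldh1l2 include 0 in all 3.

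The libraries of a group differed in the same way for most of the 10 genes. Hemin replicate 3 was the lowest hemin library for 10 of 10 genes, where it was the lowest for 38.6% of all genes tested. IL-10 replicate 1 was the highest of its group for 9 of 10 genes (36.8% of all genes) and stattic replicate 1 for 7 (31.4%). In hemin replicate 3 Shmt2 stood 0.02, Psph 0.12, Phgdh 0.14 and Pycr1 0.06 above the vehicle mean in log2 CPM, while Asns stood 0.93, Mthfd2 1.04 and Mthfd1l 0.59 above it. In hemin replicate 1 the same 7 genes stood 0.72 to 2.49 above the vehicle mean. What sets the libraries of a group apart was not tested.

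**Figure D3:**
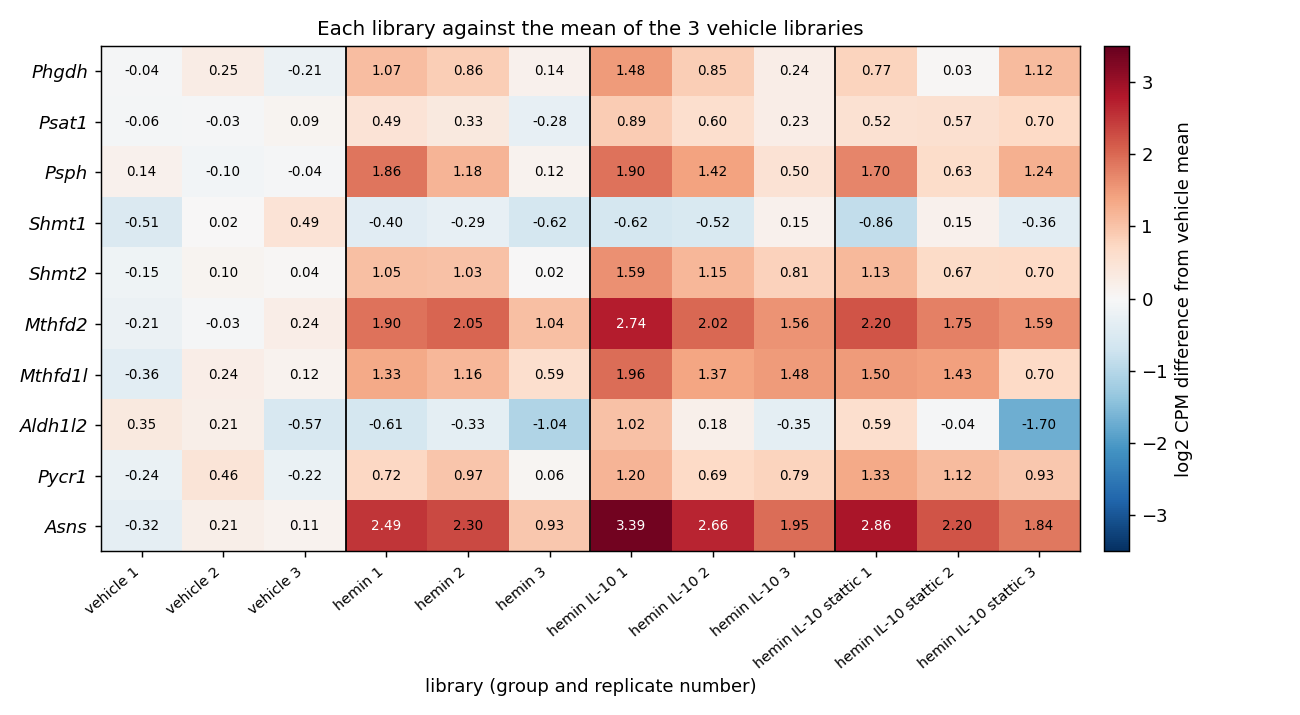
Log2 CPM of each gene (rows) in each library (columns) minus the mean of the 3 vehicle libraries, with the value printed in each cell (red above 0, blue below 0). Asns reaches 3.39 in IL-10 replicate 1, while its value for hemin replicate 3 is 0.93, and the only value below 0 outside the vehicle columns that is not of Shmt1 or Aldh1l2 is that of Psat1 in hemin replicate 3, at -0.28.

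The second comparison asks whether interleukin-10 changed the response to hemin, and no such difference was called. Each of the 10 genes had a higher mean with interleukin-10 than with hemin alone, by 0.14 (Shmt1) to 1.03 (Aldh1l2) on the log2 scale, against 49.2% of all genes with a difference above 0. These are not 10 separate observations, since most of the genes varied together between libraries. Hemin replicate 3 was the lowest hemin library for all 10, and IL-10 replicate 1 the highest of its group for 9. None of the 10 passed (edgeR adjusted p = 0.999 for each), none had an unadjusted p under 0.05, and DESeq2 and limma called none of the 10. Over all genes 0.0% were called, with 337 genes (2.41%) at an unadjusted p under 0.05. The intervals were wide: for Asns the difference was 0.74 (CI -0.21 to 1.68), for Mthfd2 0.47 (CI -0.25 to 1.19), for Mthfd1l 0.57 (CI -0.05 to 1.19), for Shmt2 0.44 (CI -0.19 to 1.08) and for Aldh1l2 1.03 (CI -0.06 to 2.12). Mthfd1l was the gene of the 10 whose IL-10 libraries all lay above all hemin libraries, as in 3.61% of all genes.

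The intervals and p-values above took no account of pairs. Replicate numbers of the IL-10 and hemin groups were also read as pairs, since same-numbered libraries deviated from their group means together over all genes. What a shared number means is not stated in the labels. By pair, Asns was 291, 83.4 and 117 CPM higher with interleukin-10, Psat1 137, 76.6 and 107 CPM higher, and Shmt2 99.7, 17.8 and 79.9 CPM higher. Psph, Mthfd1l and Aldh1l2 were likewise higher in all 3 pairs, which makes 6 of the 10 genes, against 19.3% of all genes. Here too the genes varied together between libraries, so these 6 are not separate observations. No gene of the 10 was lower in all 3 pairs (18.2% of all genes). Phgdh, Mthfd2 and Pycr1 were lower with interleukin-10 in the second pair, by 3.69, 2.93 and 2.74 CPM, and Shmt1 was lower in the first and the second. A fit with the pairs as a block called none of the 10 and 1 gene in all, Dlk1, which inhibits adipocyte differentiation (log2 change 3.13, adjusted p = 0.0287) and which was named after its value was seen.

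The third comparison asks whether a STAT3 inhibitor changed these transcripts in cells given hemin and interleukin-10. The stattic group had a lower mean than the IL-10 group for 8 of the 10 genes, where 48.0% of all genes had a difference below 0, and the log2 differences ran from -0.51 (Aldh1l2) to 0.23 (Pycr1). None of the 10 passed (edgeR adjusted p 0.921 to 1.0), none had an unadjusted p under 0.05, and DESeq2 and limma called none of the 10. Over all genes 0.0% were called, with 523 genes (3.74%) at an unadjusted p under 0.05. For Asns the difference was -0.42 (CI -1.37 to 0.52), for Mthfd2 -0.33 (CI -1.05 to 0.39), for Mthfd1l -0.38 (CI -1.0 to 0.24) and for Shmt2 -0.37 (CI -1.0 to 0.27). For Psat1 it was 0.0 (CI -0.53 to 0.53). This comparison and the previous one share the 3 IL-10 libraries, of which replicate 1 was the highest for 9 of the 10 genes. Without it, Asns differed by 0.01, Mthfd2 by 0.06, Phgdh by 0.13 and Psph by 0.22 between the stattic and IL-10 groups.

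**Figure D4:**
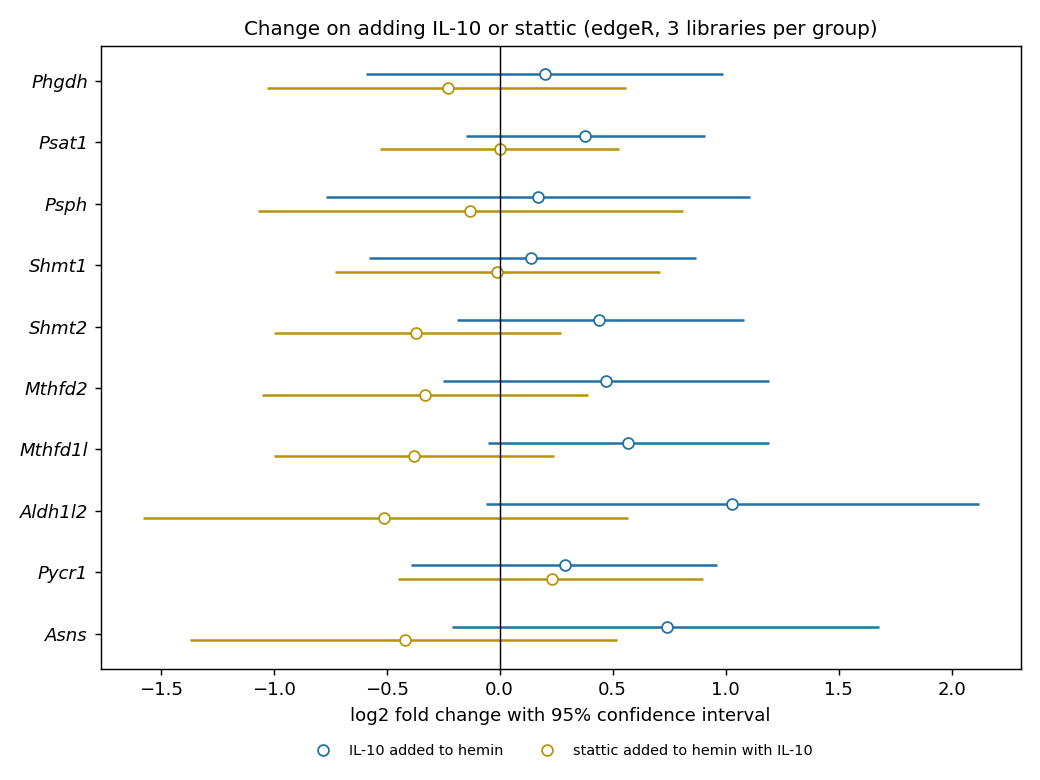
Log2 fold change (x axis) of each gene (y axis) with its 95% confidence interval when interleukin-10 was added to hemin and when stattic was added to both (edgeR, 3 libraries per group; the comparisons share the IL-10 libraries). Every interval includes 0, and no symbol has an adjusted p under 0.05.

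Related enzymes give a second view, as ratios of FPKM within a library. These ratios were chosen after values had been seen and are descriptions with no test. Shmt2 over Shmt1 was 5.03, 4.12 and 2.81 in the vehicle libraries and 10.7, 10.6 and 6.52 in the hemin libraries, which did not overlap. Mthfd1l over Mthfd1, the cytosolic enzyme of the folate pathway, was 0.131, 0.169 and 0.17 in vehicle and 0.484, 0.559 and 0.42 in hemin. For both of these ratios all hemin, all IL-10 and all stattic libraries lay above all vehicle libraries. Mthfd2 over its close relative Mthfd2l was 2.72, 2.44 and 2.61 in vehicle and 4.3, 5.22 and 2.57 in hemin, where replicate 3 lay within the vehicle range. Mitochondrial Aldh1l2 over cytosolic Aldh1l1 was lower in mean with hemin, at 0.0625, 0.114 and 0.0793 against 0.111, 0.196 and 0.23 in vehicle, with overlap, and ranged from 0.138 to 0.393 in the IL-10 group and from 0.0344 to 1.15 in the stattic group. Psph over Psat1 was 0.165 to 0.211 in vehicle and 0.256 to 0.521 in hemin, which did not overlap, while Psph over Phgdh, at 0.128 to 0.19 and 0.174 to 0.319, did. In the stattic group Mthfd1l over Mthfd1 ranged from 0.249 to 1.29. Mthfd1 itself was at 139 ± 11.4 CPM in vehicle and 96.9 ± 21.1 CPM in hemin (log2 difference -0.52, edgeR adjusted p = 0.296).

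**Figure D5:**
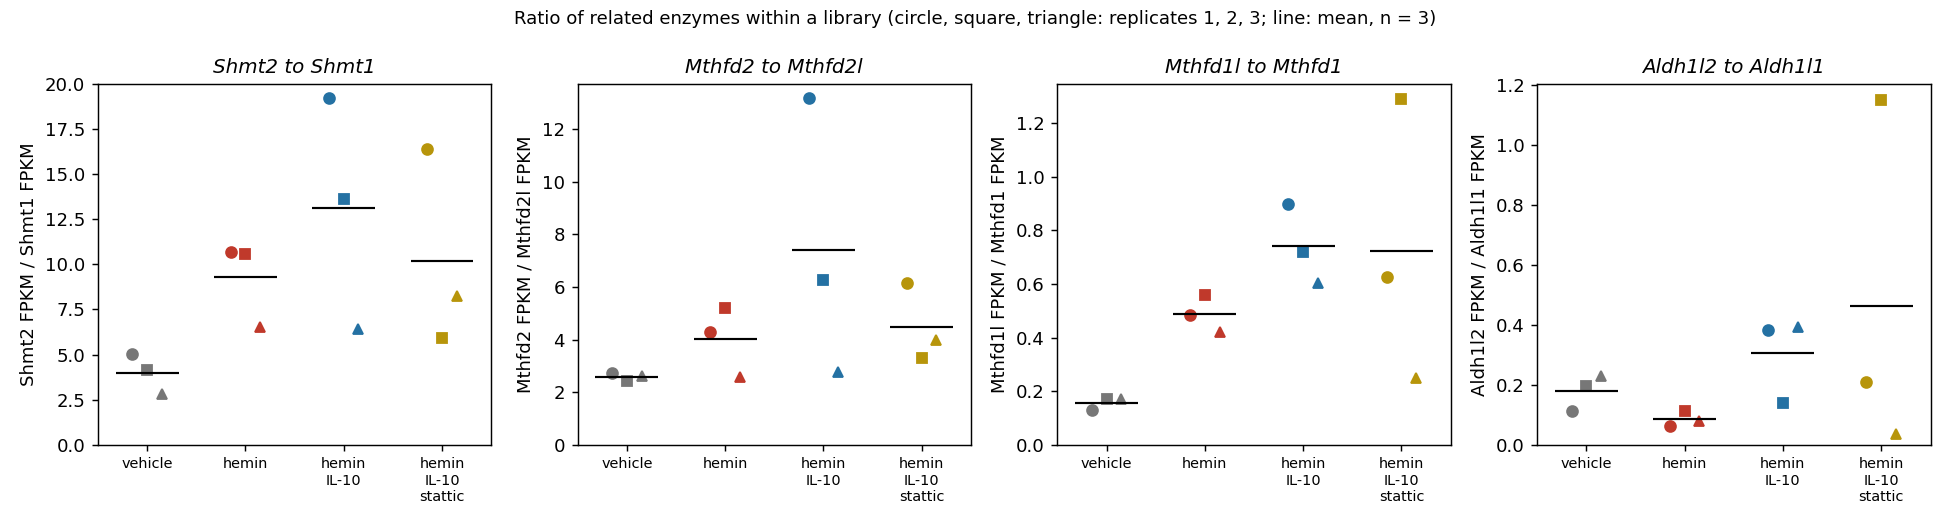
FPKM ratio of Shmt2 to Shmt1, Mthfd2 to Mthfd2l, Mthfd1l to Mthfd1 and Aldh1l2 to Aldh1l1 (y axes, linear from 0) in each library of the 4 groups (x axis), with lines at the group means (n = 3). The mean of Shmt2 over Shmt1 is 3.99 in vehicle and 9.28 in hemin, that of Aldh1l2 over Aldh1l1 is 0.179 and 0.0852, and stattic replicate 2 has the highest Mthfd1l over Mthfd1, at 1.29.

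Across the 12 libraries the 45 pairs of these genes had Pearson correlations of log2 CPM from -0.59 to 0.99, with a median of 0.77, and 18 pairs above 0.8. The libraries share treatment and scaling, so these values are a description. Mthfd2 and Asns were the closest pair at 0.99. With the group means removed, the median over the pairs was 0.66. Against the mean of all 10 standardised genes, Shmt2 correlated at 0.99, Asns at 0.97 and Mthfd2 at 0.94, while Aldh1l2 correlated at 0.34 and Shmt1 at -0.33.

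By the same measure, over 12 libraries, the genes outside the set that were most like the mean of the 10 were Sars (r = 0.983), Zwint (0.976), Eif3c (0.974), Rbm38 (0.972), Psmd3 (0.971) and Tcea1 (0.971). Sars encodes the seryl-tRNA synthetase, which loads serine onto its tRNA, and was at 170 CPM in vehicle, 342 in hemin, 546 in the IL-10 group and 465 in the stattic group. Zwint, a kinetochore protein gene, was at 305, 635, 949 and 771 CPM in the same order. With hemin, Sars (edgeR adjusted p = 0.0427), Eif3c (0.04) and Rbm38 (0.0229) were called higher than vehicle. Zwint (0.0925), Psmd3 (0.271) and Tcea1 (0.253) were not called.

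Of 36 listed neighbours in one-carbon and serine metabolism 30 were tested, and 3 rose and none fell with hemin, beside 11.7% and 9.15% of all genes called higher and lower, with a median log2 change of -0.13 against 0.03 over all genes (3 were lower at an unadjusted p under 0.05, and DESeq2 called 1 lower and limma none). Those that rose were Cth, which makes cysteine from cystathionine, at 2.7 ± 0.459 CPM in vehicle and 32.6 ± 19.7 CPM in hemin (log2 change 3.59, edgeR adjusted p = 0.0108), Mthfd2l at 16.9 ± 2.81 and 35.3 ± 1.81 CPM (1.06, adjusted p = 0.0213), and Slc25a32, the mitochondrial folate carrier, at 15.8 ± 1.24 and 24.5 ± 3.17 CPM (0.63, adjusted p = 0.0481). Any of 4 single omissions (hemin replicate 1, hemin replicate 2, vehicle replicate 1, vehicle replicate 2) gave a count of 1, and leaving out stattic replicate 3 gave 5. Over the 24 alternatives 1 to 7 rose and 0 to 4 fell with hemin. Against vehicle 4 of the 30 rose and 1 fell in the IL-10 group, beside 12.1% and 8.81% of all genes. The gene that fell was Tyms, thymidylate synthase, by 0.97 on the log2 scale (edgeR adjusted p = 0.0445, not called without any 1 of 8 libraries). In the stattic group 4 of the 30 rose and none fell, beside 14.7% and 10.2% of all genes. There the count that fell was 6 by limma, 4 by limma with no filter or without hemin replicate 1 and stattic replicate 3, 3 with library totals, with the replicate block or without stattic replicate 3, and 2 by DESeq2 or without stattic replicate 1. Mat2b, a regulatory subunit of methionine adenosyltransferase, was at 23.0 ± 0.338 CPM in vehicle, 34.3 ± 6.48 in hemin (log2 difference 0.58, edgeR adjusted p = 0.0756) and 38.3 ± 6.0 in the stattic group, where it rose (0.74, adjusted p = 0.0277). Leaving out any 1 vehicle library took these counts of 4 down to 2 and to between 1 and 2.

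Of the neighbours of proline, asparagine and glutamate, 3 of 18 tested rose with hemin and none fell, beside 11.7% and 9.15% of all genes (none lower at an unadjusted p under 0.05, by DESeq2 or by limma), with a median log2 change of 0.45. Aldh18a1, which makes the precursor that Pycr1 reduces to proline, was at 100, 109 and 105 CPM in vehicle and at 288, 308 and 200 CPM in hemin (log2 change 1.34, edgeR adjusted p = 0.00841). Got1, the cytosolic aspartate aminotransferase, rose by 1.1 (adjusted p = 0.0316) and Bcat1, the cytosolic branched-chain aminotransferase, by 1.3 (adjusted p = 0.0176). The count was 1 without any 1 of the vehicle libraries or hemin replicate 2. Aldh18a1, Got1 and Bcat1 also rose in the IL-10 group (12.1% of all genes). They and Pycrl, another pyrroline-5-carboxylate reductase gene, rose in the stattic group (14.7% of all genes), where the count of 4 was 2 without vehicle replicate 1.

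Of 13 tested genes of purine synthesis, which uses one-carbon units, 1 rose and 2 fell with hemin, beside 11.7% and 9.15% of all genes, with a median log2 change of -0.02. The gene that rose was Adss, adenylosuccinate synthase (log2 change 0.79, edgeR adjusted p = 0.0308), and the enzymes of the purine ring that fell were Pfas, at 64.5 ± 5.22 CPM in vehicle and 34.7 ± 6.95 CPM in hemin (-0.89, adjusted p = 0.0162), and Paics, at 261 ± 31.0 and 163 ± 31.5 CPM (-0.68, adjusted p = 0.0473). Both of the last also fell in the IL-10 and stattic groups, where 8.81% and 10.2% of all genes were called lower. Without vehicle replicate 2, or without vehicle replicate 3, neither fall was called in any of these comparisons. The same held with hemin when hemin replicate 2 was left out and in the IL-10 group when IL-10 replicate 2 was. The count that fell was 1 without vehicle replicate 1 in each of these comparisons, with hemin also without hemin replicate 3 or any 1 IL-10 library, in the IL-10 group also without IL-10 replicate 1 or 3, and in the stattic group also without stattic replicate 2. Prps2, which makes the ribose phosphate donor of purine synthesis, was at 49.9 ± 1.93 CPM in vehicle and 31.2 ± 12.1 CPM in hemin (-0.68, adjusted p = 0.151). The rise of Adss was lost when vehicle replicate 1 or 3, or else either of the first 2 hemin libraries, was left out.

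The ATF4 pathway list (41 genes, all tested, among them Eif2ak1 and other eIF2 kinases, Atf4, known targets and aminoacyl-tRNA synthetases) had 25 genes that rose with hemin and none that fell, beside 11.7% and 9.15% of all genes, with a median log2 change of 1.4 against 0.03 over all genes. None fell at an unadjusted p under 0.05, by DESeq2 or by limma either. Leaving out vehicle replicate 1 gave a count of 13, and leaving out vehicle replicate 3 gave 14. Atf4 was at 95.6, 128 and 103 CPM in vehicle and at 413, 401 and 331 CPM in hemin (log2 change 1.81, edgeR adjusted p = 0.00492). Chac1, a glutathione-degrading enzyme, rose by 4.45 (adjusted p = 4.29e-05), Cebpb, a C/EBP factor, by 4.92 (0.000507), Ddit3, which encodes CHOP, by 3.55 (0.00076) and Cars, the cysteinyl-tRNA synthetase, by 1.62 (0.00176). Eif2ak1 was at 68.1 ± 6.28 CPM in vehicle and 62.5 ± 5.27 CPM in hemin (-0.12, adjusted p = 0.635).

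In the IL-10 group 31 of the 41 rose against vehicle (12.1% of all genes) and in the stattic group 28 (14.7% of all genes; 17 without vehicle replicate 1), and none fell (8.81% and 10.2% of all genes; 1 fell in the stattic group with the replicate block or without stattic replicate 1). Between hemin and the IL-10 group, and between the IL-10 and stattic groups, no gene of any of these lists was called; the median of the ATF4 list was 0.39 and -0.4 in these comparisons, beside 0.41 and -0.28 for the 10 enzymes. Of 6 other regulators often named with serine synthesis, 2 rose with hemin, beside 11.7% of all genes. They were Mycn (log2 change 1.11, edgeR adjusted p = 0.0171) and Mdm2 (1.94, adjusted p = 0.042). Leaving out vehicle replicate 2 or 3, or hemin replicate 2, took this count to 0, and leaving out IL-10 replicate 2, hemin replicate 1 or vehicle replicate 1 took it to 1. Of the same list, Trp53, which encodes p53, was at 69.4 ± 9.25 CPM in vehicle and 101 ± 27.1 in hemin (0.53, adjusted p = 0.116), and Nfe2l2, which encodes NRF2, at 68.8 ± 23.4 and 165 ± 64.1 CPM (1.26, adjusted p = 0.132). Trp53, Mycn and Mdm2 were called higher in both the IL-10 and stattic groups, beside 12.1% and 14.7% of all genes. That count of 3 was 0 to 1 when any 1 vehicle library was left out, 0 to 1 in the IL-10 group without any 1 of its own libraries, and 0 in the stattic group without stattic replicate 2; limma gave 1 and 0.

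Summed markers of some other cell types differed between the groups as well. With hemin, 11.7% of all genes were called higher and 9.15% lower, so a single marker that fell is not read as a change of its list. In bulk RNA, fewer cells of a type and less RNA per cell cannot be told apart. Of the 10 progenitor markers summed above, 3 fell with hemin, 6 in the IL-10 group and 4 in the stattic group, and none rose. Their median log2 differences from vehicle were -1.62, -1.83 and -1.66, and the shares of all genes called lower 9.15%, 8.81% and 10.2%. Summed astrocyte markers (10 genes), the cell type with which Phgdh is best known, were at 2310 to 6390 CPM in vehicle and 1980 to 2970 in hemin, where Gjb6 was at 0, 901 to 2480 in the IL-10 group and 1090 to 3960 in the stattic group; 1 of 9 tested fell with hemin. Summed markers of fibroblasts, endothelial and mural cells (12 genes) were at 11.3 to 28.1 CPM in vehicle, 94.4 to 417 in hemin, 45.2 to 99.6 in the IL-10 group and 51.0 to 133 in the stattic group. Of 11 tested, 7 rose with hemin, 3 in the IL-10 group and 5 in the stattic group. Summed microglia and macrophage markers (14 genes) were at 9.24 to 38.6, 55.8 to 190, 27.1 to 61.0 and 80.6 to 176 CPM in the same order. Of 13 tested, 4 rose with hemin, 1 in the IL-10 group and 7 in the stattic group. Neuron markers (12 genes) summed to between 856 and 1500 CPM in all libraries, and 3 of 12 rose and 1 fell in each treatment against vehicle. The shares of all genes called higher and lower were 12.1% and 8.81% in the IL-10 group and 14.7% and 10.2% in the stattic group. Mature oligodendrocyte markers (8 genes) lay between 2390 and 6470 CPM in vehicle, 320 and 1780 in hemin, 1130 and 2390 in the IL-10 group and 1450 and 10800 in the stattic group, and 1 of 6 tested fell with hemin. Their part in the changes of the 10 enzymes was not tested.

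The length trend was measured directly. With a correction for transcript length, the changes with hemin were 1.87 for Asns (edgeR adjusted p = 0.0175), 1.58 for Mthfd2 (0.0106) and 1.14 for Mthfd1l (0.0116). Without hemin replicate 1 and stattic replicate 3 they were 1.75 (0.0238), 1.62 (0.0146) and 0.88 (0.0353), and Psph was at 0.73 (0.25).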

How the data were processed

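RNA-seq libraries of total RNA (12, with dUTP in the second strand per the labels' protocols) were analysed from 1 deposited table each. RSEM, Bowtie2, HISAT, StringTie, TopHat, Cufflinks, Bowtie and CASAVA appear in the submitters' processing notes without versions or roles. The genome build, the use of strand in counting and the sharing of reads between near-identical copies are not stated there or in the labels and headers. Per the file headers, the authors deposited an expected count (an estimated number of reads, not normalised, with a different total in each library), an FPKM value and a transcript length per gene. Only genes above 0 are listed, and an absent gene was taken as 0.

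Expected counts were rounded and tested with edgeR (4.0.16, R 4.3.3): filterByExpr, trimmed mean of M values (TMM) scaling, and the robust quasi-likelihood test on the 12 libraries together, fitting a mean for each group. A gene was called in 1 of 5 comparisons where its p, adjusted by Benjamini-Hochberg over 13967 genes, was under 0.05. Log2 CPM used a prior count of 2. limma (3.58.1, log2(FPKM + 1), genes at 1 FPKM or more in 3 libraries) and DESeq2 (1.42.0) were alternatives among 24 in all, given in the closing section. With 3 libraries against 3 an exact permutation test cannot go below p = 0.1, so none was run. On simulated counts for hemin against vehicle (12958 genes), the test recovered 8% of changes of 1 and 64% of changes of 2 on the log2 scale, with 2 false calls (2.7% of calls). Only 100 genes were given each size of change, far fewer than were called in the data. The Benjamini-Hochberg adjustment is stricter when fewer genes change, so these shares do not measure how often the test finds such changes here.

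The 10 genes and the gene lists were chosen with earlier results of these data known. The named genes are the 10, from each list up to 4 genes called with hemin and up to 2 called in any other comparison, taken by lowest adjusted p, and Atf4, Eif2ak1, Aldh18a1, Mthfd1 and Mthfd2l always; 1 further gene of this rule is not reported here. The 6 genes most like the set have a mean of at least 5 CPM and are not predicted gene models. Ratios of related enzymes were added after seeing the data. Lists cover one-carbon and serine neighbours, neighbours of proline, asparagine and glutamate, purine synthesis, the ATF4 pathway, and other regulators. The labels number the replicates without saying what a number shares. Between the IL-10 and hemin groups, libraries of 1 number had deviations from the group mean that correlated at 0.374, 0.17 and 0.61 over all genes tested. Each is over 0.1, and differences by pair are therefore given for this comparison and not for the other 4. Over the 10 genes alone the values were 0.479, -0.149 and 0.747. Between the stattic and IL-10 groups they were 0.64, -0.0463 and 0.479 over all genes tested. The main test took no account of pairs in any comparison, and the replicate block was an alternative.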

Additional observations from a re-analysis of the deposited data

How the results depend on the processing

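Of the 24 alternatives per result, 23 were planned and 1, only the 8 libraries numbered 1 or 2, was added after seeing the data. Each of the 10 genes kept the sign of its log2 change with hemin in all 24. Against vehicle, Mthfd2 and Asns were called in all 24 in the IL-10 and stattic groups, Mthfd2 also with hemin and Mthfd1l in the IL-10 group. Leaving out 1 library at a time gave 1309 to 4256 genes called with hemin, 1202 to 4227 in the IL-10 group and 1608 to 3864 in the stattic group, 0 to 1 between the IL-10 and hemin groups, and 1 to 5, 3 to 6 and 2 to 6 members that rose in the 3 comparisons with vehicle. DESeq2 gave 5, 8 and 7 members that rose, the 8 libraries gave 5 with hemin, and limma with no filter gave 2 in the stattic group. Without hemin replicate 1 and stattic replicate 3 together 4546 genes were called in the IL-10 group, and a fit to only the groups compared called 1650 in the stattic group. Between the IL-10 and hemin groups, no filter gave 1 gene (Dlk1), DESeq2 gave 3 (Dlk1, H3c14 and Slc30a10) and the replicate block 1. In the other comparisons the numbers are only shared: with the replicate block 2167 genes were higher and 1833 lower with hemin, and Psph (log2 1.08, adjusted p = 0.0306) was called with hemin, Pycr1 (0.91, 0.0343) in the IL-10 group, and Psph (1.21, 0.0163) and Shmt2 (0.81, 0.0319) in the stattic group. The block changed no other member's call.

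Calls named in the report as lost without 1 library aside, Mthfd1l with hemin was lost with limma and no filter (adjusted p = 0.0628; 0.0501 in the stattic group). Psph in the IL-10 group was lost with library totals (0.0532), the length correction (0.0607) and limma (0.0597 to 0.0925), and Pycr1 in the stattic group with library totals (0.0536), the length correction (0.0661), limma (0.0665 to 0.0924), only the groups compared (0.0585) and the 8 libraries (0.0517). Log2 differences that changed sign were all uncalled. Between the IL-10 and hemin groups, leaving out 1 library gave -0.17 to 0.46 for Phgdh, -0.18 to 0.65 for Psph and -0.14 to 0.29 for Shmt1, and the 8 libraries gave -0.23 for Shmt1. Between the stattic and IL-10 groups it gave -0.51 to 0.13 for Phgdh, -0.15 to 0.17 for Psat1, -0.43 to 0.22 for Psph, -0.31 to 0.28 for Shmt1, -0.56 to 0.06 for Mthfd2 and -0.76 to 0.01 for Asns. There Psat1 was at -0.02 with DESeq2 size factors, no filter or DESeq2, -0.1 with library totals, -0.06 with each limma setting, -0.01 with only the groups compared, -0.07 without the 2 libraries, -0.15 with the length correction and -0.21 with the 8 libraries, and Shmt1 was at 0.01 and 0.31 without the 2 libraries and with the 8. Aldh1l2 ranged from -0.12 to 0.61 in the IL-10 group against vehicle when 1 library was left out, and from -0.7 to 0.25 in the stattic group, where it was at 0.25 without the 2 libraries, 0.08 with the length correction and 0.02 with the 8. The cause of these shifts was not tested. In all, 1093 of the log2 changes under alternatives stayed on the same side, 31 gained and 33 lost a call, and 43 changed sign.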
